A study of Bos taurus with 9 samples.

Results

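The genes of the proteasome, the protease that degrades most ubiquitin-tagged proteins of a cell, were followed in bovine oocytes at metaphase II. Members were the genes whose bovine NCBI symbol begins with PSMA to PSMG followed by a number, and 50 of the 17852 genes in the deposited table met this rule. The match was by symbol alone, and no measured value entered it. Of these, PSMC3IP, a meiotic recombination factor, and PSME3IP1, a protein that binds PSME3, carry such a symbol without being proteasome genes, which leaves 48 genes of the proteasome, its assembly factors and its regulators. The study held 9 RNA-seq libraries in 3 groups of 3, named control, microplastics, and microplastics with taurine. The last is called the taurine group here, and it carries the microplastics exposure too. The labels give no dose, exposure time, breed or age. They leave unsaid whether replicate libraries stem from different cows or cultures, so p-values cover the spread among these libraries, which may be technical. The question of the comparisons, from the title of the series, is how microplastics and then taurine bear on oocyte maturation.

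The proteasome consists of a barrel, the 20S core, and caps that bind its ends. The core is built of alpha subunits (PSMA genes) in the outer rings and beta subunits (PSMB genes) in the inner rings, of which PSMB5, PSMB6 and PSMB7 cut protein chains. The 19S cap recognises and unfolds substrates with a ring of ATPases (PSMC genes) and a set of non-ATPase subunits (PSMD genes). The PSMG genes encode chaperones that assemble the core. PSMD5, PSMD9 and PSMD10 encode chaperones of the cap, PSME genes encode alternative caps, and PSMF1 is an inhibitor. In oocytes the proteasome degrades cyclin B and securin when meiosis proceeds to anaphase, and it acts again when maternal proteins are cleared after fertilization.

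Libraries held 21.17 to 22.74 M estimated reads, and all 12 oocyte markers were detected and tested, with summed levels of 92997 to 122041 CPM (counts scaled to library size) in control, 40993 to 49087 under microplastics and 85448 to 112037 in the taurine group. BTG4 had the highest mean of the 12 in each group, at 59410 ± 9404 CPM in control, 19791 ± 3132 with microplastics and 52885 ± 8968 with taurine. With microplastics 7 of the 12 were called lower, 2 (NLRP5 and ZAR1) higher and 3 were not called. Over all tested genes 14.7% were called lower and 9.68% higher, and over those with at least 100 CPM on average 40.5% and 4.9%. Of 16 cumulus and granulosa markers 15 were in the table, with summed levels of 511 to 611, 418 to 518 and 516 to 566 CPM. The highest, STAR, had 283 ± 86.5, 309 ± 54.4 and 281 ± 51.4 CPM in these groups and was not called. With microplastics 5 of the 12 tested (SERPINE2, GJA1, PTGS2, VCAN and INHA) were lower and 0 higher. The part of either marker list in the changes of the members was not tested. Levels below are CPM after TMM scaling, which divides by library sizes adjusted for composition. These adjustments, the TMM factors, ran from 1.214 to 1.253 under microplastics, above the 0.835 to 0.972 of control and the 0.841 to 0.958 of the taurine group, so the scaling itself differed between the groups. Control 3 and taurine 3 resembled each other's groups more than their own. Control 3 had Pearson correlations of log2 CPM over all tested genes of 0.962 and 0.964 with the other control libraries and 0.976 with both taurine 1 and taurine 2. Taurine 3 correlated at 0.951 and 0.962 with the other taurine libraries and at 0.969 and 0.977 with control 1 and control 2. Whether these labels are right was not tested, and values in every library and results without the pair are given where they bear on a member. Replicate values are listed in the order of libraries 1, 2 and 3.

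Members together took 0.789% ± 0.026 of estimated reads in control (SD, n = 3), 0.784% ± 0.022 under microplastics and 0.867% ± 0.039 in the taurine group. By length-scaled abundance, in TPM, the subunits of one particle differed widely in mRNA level, although each proteasome contains them in equal number. PSMA5, an alpha subunit, was the most abundant of the 14 constitutive core genes at 2356, 2635 and 2470.2 TPM in control, 2198, 2436 and 2564 with microplastics and 2851, 2673 and 3083 with taurine. It made up 36.3% ± 2.89 of the TPM of those 14 genes in control. PSMA7, another alpha subunit, followed at 1169, 1127 and 1939 TPM in control, 1818, 1922 and 2085 with microplastics and 2773, 1395 and 1101 with taurine. Control 3 and taurine 1 were the high libraries of their groups for PSMA7. The lowest core gene was PSMA1, at 4.77, 5.81 and 6.35 TPM in control, 5.66, 5.63 and 3.27 with microplastics and 1.68, 3.79 and 8.85 with taurine. The ratio of PSMA5 to PSMA1 was 445 ± 52.9 in control, 535 ± 217 with microplastics and 917 ± 699 with taurine, so the order of the extremes held while their distance overlapped between groups. PSMA2, with 7.15 ± 1.17 TPM in control, did not stand apart from PSMA1 beyond their spread. PSMA8, the alpha subunit found mainly in spermatocytes, where it replaces PSMA7, had 5.78 ± 3.53 TPM in control.

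Within the beta ring the non-catalytic subunits led and the catalytic ones were low. In control PSMB3, PSMB1 and PSMB2, none of which cuts proteins, had 628 ± 60.9, 450.0 ± 53.5 and 414 ± 66.3 TPM. The catalytic subunits had 44.4 ± 7.06 (PSMB5), 42.3 ± 8.2 (PSMB6) and 27.8 ± 5.81 TPM (PSMB7). PSMB6 overlapped with both others, while PSMB5 lay above PSMB7 in all 3 control libraries. Among the 17 PSMC and PSMD genes of cap subunits, PSMD11, a lid subunit, was highest with 449 ± 57.1 TPM in control. PSMC5, an ATPase, was lowest with 4.27 ± 2.36 TPM. PSMD11 made up 36.4% ± 6.25 of the TPM of these 17 genes in control. The median subunit had 304 TPM among the 14 constitutive core genes and 46.7 TPM among these 17. The assembly chaperone PSMG1 had 997 ± 118 TPM in control, more than all but 2 core subunits. The activators and the inhibitor were scarce: PSME1 to PSME4 summed to 19.7 ± 2.19 TPM and PSMF1 had 3.97 ± 0.698 TPM in control.

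**Figure D1:**
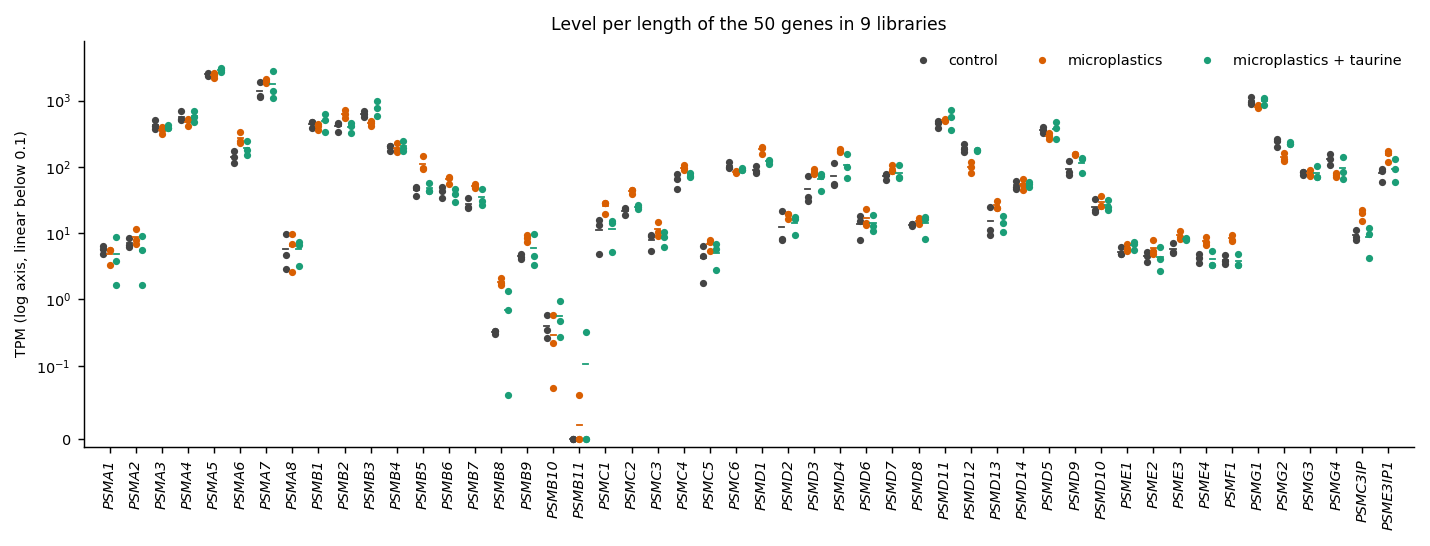
Deposited TPM (log axis, linear below 0.1) of the 50 genes in order of role, with 1 point per library and a bar at each group mean (control, microplastics, microplastics and taurine; 3 libraries each). PSMA5 lies highest in every library, PSMA1 lies between 1.68 and 8.85 TPM, and PSMB11 is at 0 in 7 of 9 libraries.

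With microplastics, the chaperones that assemble the core and a part of the core and cap subunits were lower than in control. All 4 PSMG genes fell, as did the alpha subunits PSMA3, PSMA4 and PSMA5, the beta subunits PSMB1, PSMB3 and PSMB4, the ATPase PSMC6, the lid subunits PSMD12 and PSMD14, and the cap chaperone PSMD5. PSMB5, the chymotrypsin-like catalytic subunit, rose. In bulk libraries such as these, fewer cells of a type and less RNA per cell cannot be told apart. Of the 50 members, 48 passed the filter on low counts, PSMC3IP and PSME3IP1 among them. Of these 48, 14 were lower, 1 was higher and 33 were not called (edgeR quasi-likelihood test, Benjamini-Hochberg adjusted p under 0.05 over 13206 genes). Of all tested genes, 14.7% were called lower and 9.68% higher. The median log2 change was -0.17 over the tested members and 0.04 over all tested genes. Without PSMC3IP and PSME3IP1, 46 members were tested, the same calls remained, 31 were not called and the median was -0.23. In 16 members all microplastics libraries lay below all control libraries and in 8 all lay above, against 22.5% and 22.4% of all tested genes.

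Most of the called members were abundant. Of the 19 members with at least 100 CPM on average over all libraries, a division chosen after the values had been seen, 11 were lower and 0 higher, or 57.9%. Among all 1856 tested genes at that level, 40.5% were called lower and 4.9% higher. Of the 29 tested members under 100 CPM, 3 were lower (10.3%) and 1 was higher (3.4%). Over tested genes of all levels, 14.7% were called lower and 9.68% higher. The shares among genes under 100 CPM alone were not counted, so these members have no share at their own level to be set against. Members called lower also had shorter transcripts, with a median of 755 nt (291 to 1640) against 1077 nt (528 to 6847) for those not called, and a median level in control of 309 against 19.3 CPM. The part of level and length in the calls was not tested beyond the alternatives given here. With a smooth trend on transcript length removed from each library, 9 of the 48 tested members were lower and 1 higher. Of all 13201 genes tested in that way, 1850 were lower and 1072 higher.

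The number of calls in each direction also depended on the scaling. Scaled by library size alone, without TMM factors, 6 members were lower and 11 higher, and the median was 0.31 over members and 0.52 over all genes. Higher calls then made up 64.7% of the calls among members and 82.0% of those among all genes, against 6.7% and 39.8% with TMM. The median of the members less that of all genes was -0.21 under both scalings, which shift all genes of a library alike, and -0.05 with the length trend removed. The 6 lower under both scalings were PSMB3, PSMC6, PSMD12, PSMG1, PSMG2 and PSMG4. These 6 also stayed lower with each library left out in turn and with the length trend removed. In the deposited TPM, all microplastics libraries lay below all control libraries in the same 6 members, and the other 8 called lower overlapped. In 20 of the members not called lower, PSMC3IP and PSME3IP1 among them, all lay above. How many of all genes lay apart in TPM was not counted, so these numbers have no share to be set against.

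**Figure D2:**
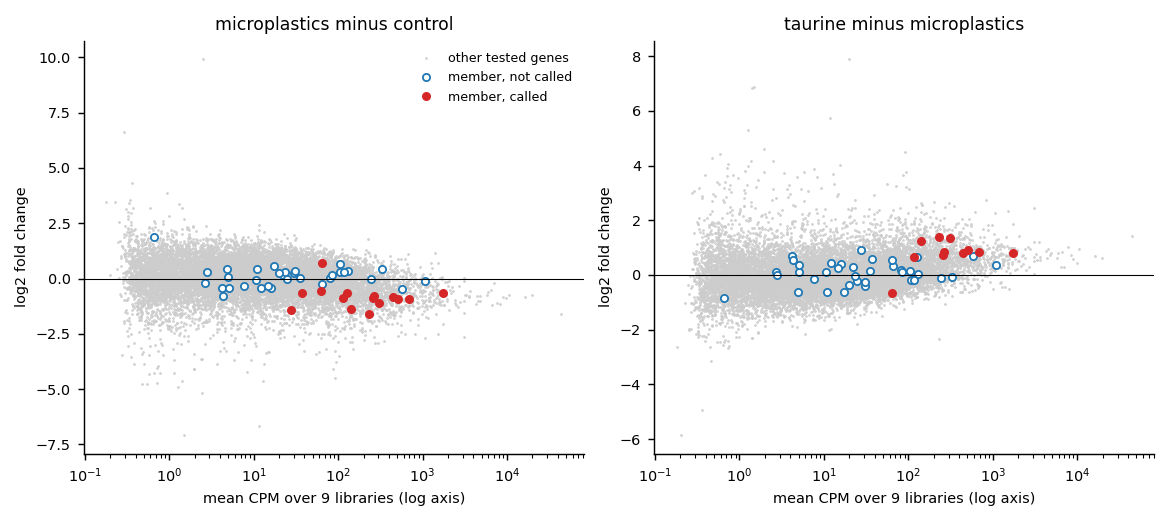
Log2 fold change against mean CPM over 9 libraries (log axis) for microplastics minus control (left) and taurine minus microplastics (right), with grey points for other tested genes, open circles for members not called and filled circles for members called by the edgeR test. On the left 11 of the 14 members called lower have at least 100 CPM, a range where 40.5% of all tested genes were lower too.

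The largest fall was that of PSMD12 (gene ID 538204), a subunit of the lid. Its level was 391, 288 and 259.5 CPM in control, 103, 90.2 and 120.1 with microplastics and 258, 266 and 294 with taurine. All 3 microplastics libraries lay below the 6 others. The difference from control was -1.58 ± 0.19 on the log2 scale (SE, edgeR adjusted p = 0.000196), or 2.99-fold lower. PSMD14, the deubiquitinase of the lid that removes ubiquitin chains from substrates, had 74.8, 66.9 and 72.9 CPM in control, 47.1, 42 and 55.5 with microplastics and 61.1, 68.7 and 81.6 with taurine. Its control and microplastics libraries did not overlap, and the change was -0.57 ± 0.18 (edgeR adjusted p = 0.035). This call ended without any one of control 1, 2 and 3 or microplastics 1 and 2, by library size alone and with the length trend removed.

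The other 9 non-ATPase subunits of the cap among the members were not called. SEM1, a lid subunit without such a symbol, is given with the partners below. PSMD4, a ubiquitin receptor, had 66.1, 62.8 and 110.1 CPM in control, 123, 125 and 132 with microplastics and 157, 104 and 76 with taurine. Control 3 and taurine 3 had the values nearest to those of the other group, and the difference of 0.67 ± 0.27 was not called (adjusted p = 0.0916). Without control 3 and taurine 3 it was 0.99 with an adjusted p of 0.002, and PSMD1, PSMD2, PSMD3 and PSMD13 were higher as well. PSMD11 was then lower, and the 48 tested members counted 15 lower and 6 higher. Of all 13426 genes tested without this pair, 2497 were lower and 2613 higher. Of the 6 ATPases only PSMC6 was called. PSMC6 was at 151, 140.2 and 144 CPM in control, 74.7, 83 and 75.2 with microplastics and 115, 118 and 136 with taurine, with every microplastics library below every other library. Its change was -0.90 ± 0.15 (edgeR adjusted p = 0.00157).

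All 4 core assembly chaperones were called lower, with a median log2 change of -1.14. PSMG1 and PSMG2 form a pair that scaffolds the alpha ring, and PSMG3 and PSMG4 form a second pair acting in the same step. PSMG1 (gene ID 614817) was at 818, 845 and 822 CPM in control, 419.7, 449 and 452 with microplastics and 836, 663 and 889 with taurine. PSMG2 (gene ID 533993) was at 168, 200.1 and 178 CPM in control, 83.2, 64.8 and 64.1 with microplastics and 159, 171 and 178 with taurine. In both, the 3 microplastics libraries lay below the 6 others. The changes were -0.91 ± 0.15 for PSMG1 (edgeR adjusted p = 0.00158) and -1.36 ± 0.17 for PSMG2 (adjusted p = 0.000208). PSMG4 was at 50.6, 40.9 and 27.7 CPM in control, 14.5, 16.2 and 13 with microplastics and 18.3, 39.4 and 25.2 with taurine, with a change of -1.45 ± 0.30 (adjusted p = 0.00484). PSMG3 was at 48.2, 42.3 and 38.2 CPM in control, 30.3, 27.3 and 24.3 with microplastics and 49.9, 34.3 and 38.2 with taurine, with a change of -0.65 ± 0.20 (adjusted p = 0.0307). Both genes, too, had their 3 lowest values in the microplastics libraries. The PSMG3 call ended without control 1, control 2 or any one microplastics library. It also ended by library size alone and with the length trend removed, and 3 of the 4 remained lower under either. In summed TPM the 4 genes had 1444 ± 124 in control, 1101 ± 33.2 with microplastics and 1408 ± 96.5 with taurine. The alpha ring summed to 5065 ± 653 TPM in control and 5473 ± 406 with microplastics. For the beta ring the sums were 1801 ± 190 and 1904 ± 146 TPM. The non-ATPase members of the cap had 1032 ± 63.1 and 1273 ± 99.2 TPM, and the ATPases 212 ± 33.1 and 268 ± 16.7. The cap chaperones had 478 ± 18.3 and 476 ± 37 TPM.

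In the alpha ring 3 of 8 genes were called, all lower. PSMA3 was at 329, 288 and 326 CPM in control, 189, 159 and 166 with microplastics and 262, 292 and 289.8 with taurine, and it changed by -0.88 ± 0.15 (edgeR adjusted p = 0.00167). PSMA4 was at 513, 515 and 573 CPM in control, 252, 322 and 315 with microplastics and 591, 493 and 448 with taurine, and it changed by -0.85 ± 0.17 (adjusted p = 0.00374). For both genes the microplastics libraries lay below all others. PSMA5, the most abundant subunit, was at 1989, 2141 and 1671 CPM in control, 1107, 1286 and 1249 with microplastics and 2008, 1917 and 2438 with taurine. It changed by -0.67 ± 0.16 (adjusted p = 0.0114), and the call ended without control 2 or microplastics 1 and with the length trend removed. None of these 3 alpha calls held by library size alone. In deposited TPM, which carries no TMM factor, PSMA5 stood at 2487 ± 141 in control and 2399 ± 186 with microplastics.

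In the beta ring 3 of 7 genes were lower and 1 higher. PSMB3 was at 374, 396 and 271 CPM in control, 175, 151 and 158 with microplastics and 290.0, 394 and 559 with taurine. Its microplastics libraries lay below all others, and the change was -1.10 ± 0.23 (edgeR adjusted p = 0.00571). PSMB1 was at 349.8, 338 and 227 CPM in control, 181, 162 and 189 with microplastics and 201, 319 and 425 with taurine, with control 3 and taurine 1 nearest to the microplastics libraries. PSMB4 was at 164, 157 and 111 CPM in control, 108, 85.1 and 83.6 with microplastics and 116, 132 and 184 with taurine. Both calls were near the threshold, at -0.78 ± 0.25 (adjusted p = 0.0414) for PSMB1 and -0.64 ± 0.22 (adjusted p = 0.0496) for PSMB4. Each ended without control 1, control 2 or any one microplastics library, by library size alone and with the length trend removed.

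Of the catalytic subunits of the constitutive core, PSMB5 was called higher. PSMB5 was at 63.5, 45 and 49.3 CPM in control, 73.2, 75.9 and 107 with microplastics and 46.7, 61.7 and 52.4 with taurine, and the 3 microplastics libraries lay above all others. It changed by 0.70 ± 0.21 (edgeR adjusted p = 0.0302), a call that ended without control 2 or microplastics 3. PSMB6, the caspase-like subunit, was at 32.9, 27.1 and 17.8 CPM in control, 26.6, 29 and 21.1 with microplastics and 16, 21.5 and 28.8 with taurine and did not separate the groups. PSMB7, the trypsin-like subunit, was at 20.8, 18.9 and 22.8 CPM in control, 24.9, 25.1 and 25.9 with microplastics and 32, 21.7 and 20.4 with taurine. Its microplastics libraries lay above the control libraries, by 0.28 with an adjusted p of 0.353, which was not called, and the taurine libraries spanned both.

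PSMD5, a chaperone of the cap base, was at 665, 697 and 478 CPM in control, 291, 332 and 345 with microplastics and 407, 592 and 809 with taurine. The difference of -0.93 ± 0.24 was called (edgeR adjusted p = 0.0149) but not without control 1, control 2 or microplastics 1, nor by library size alone. The other 2 cap chaperones, PSMD9 and PSMD10, were not called.

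**Figure D3:**
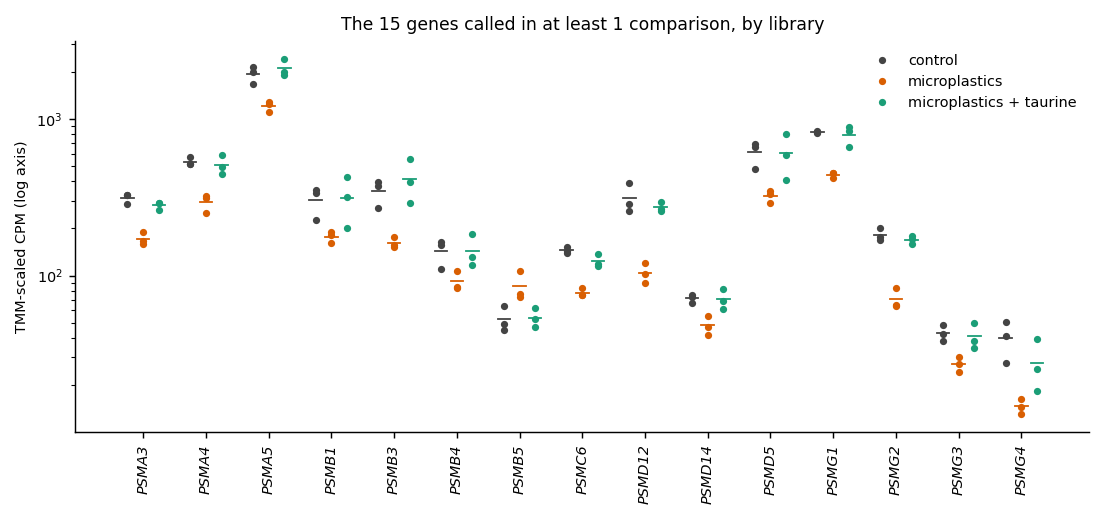
TMM-scaled CPM on a log axis in each library (points; bars are group means) for the 15 members called in at least 1 comparison. For 14 genes the 3 microplastics libraries lie below the 6 others, and for PSMB5 they lie above.

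With microplastics and taurine, 10 of the 14 members that had been lower with microplastics were higher than with microplastics alone. PSMA3, PSMA4, PSMA5, PSMB1, PSMB3, PSMC6, PSMD12, PSMD5, PSMG1 and PSMG2 rose, and PSMB5 fell. Of 48 tested members 10 were higher, 1 was lower and 37 were not called (edgeR quasi-likelihood test), against 10.1% of all tested genes higher and 4.13% lower. The median log2 change was 0.22 over members and -0.02 over all genes. Without PSMC3IP and PSME3IP1, 46 members were tested, 35 were not called and the median was 0.29. The groups did not overlap in 16 members that were higher with taurine and 3 that were lower, against 18.7% and 17.4% of all genes. All 10 members called higher were among the 19 with at least 100 CPM, or 52.6%, and 33.1% of all genes at that level were called higher and 1.89% lower. This comparison shares its microplastics libraries with the one before, so the opposite signs are not independent of it.

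PSMD12 was 1.38 ± 0.19 higher on the log2 scale (edgeR adjusted p = 0.000678), the largest change among the members called here. PSMB3 was higher by 1.36 ± 0.23 (adjusted p = 0.00273) and PSMG2 by 1.26 ± 0.17 (adjusted p = 0.000529). These 3 calls held under each alternative that was run, a minimum change of 1 on the log2 scale among them. PSMG1 rose by 0.85 ± 0.15 (adjusted p = 0.00344) and PSMA5 by 0.80 ± 0.16 (adjusted p = 0.00654), and both held with each library left out and by library size alone. PSMA3 rose by 0.72 ± 0.15 (adjusted p = 0.00769), PSMA4 by 0.79 ± 0.17 (adjusted p = 0.00843) and PSMC6 by 0.66 ± 0.15 (adjusted p = 0.0125). By library size alone these last 3 were not called, and PSMA3 was not called with the length trend removed either. The PSMA4 call ended without microplastics 1, and the PSMC6 call without microplastics 1 or microplastics 3.

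The remaining 3 calls ended when single libraries were left out. PSMB1 changed by 0.83 ± 0.25 (edgeR adjusted p = 0.0467) and PSMD5 by 0.90 ± 0.24 (adjusted p = 0.0249). Both calls ended without any one microplastics library, taurine 2 or taurine 3, and taurine 3 had the highest value in each. Both also ended by library size alone, and the PSMB1 call with the length trend removed. PSMB5 changed by -0.67 ± 0.21 (adjusted p = 0.0496), and this call ended without any one of the 6 libraries. The 4 members that had been lower with microplastics and were not called here were PSMB4 at 0.65 ± 0.22 (adjusted p = 0.0681), PSMD14 at 0.55 ± 0.18 (adjusted p = 0.0577), PSMG3 at 0.58 ± 0.20 (adjusted p = 0.0671) and PSMG4 at 0.92 ± 0.29 (adjusted p = 0.0545). Scaled by library size alone, 5 members were higher and 5 lower, with a median of -0.21 over members and -0.45 over all genes. Higher calls then made up 50% of the calls among members and 19.5% among all genes, against 90.9% and 71.0% with TMM.

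**Figure D4:**
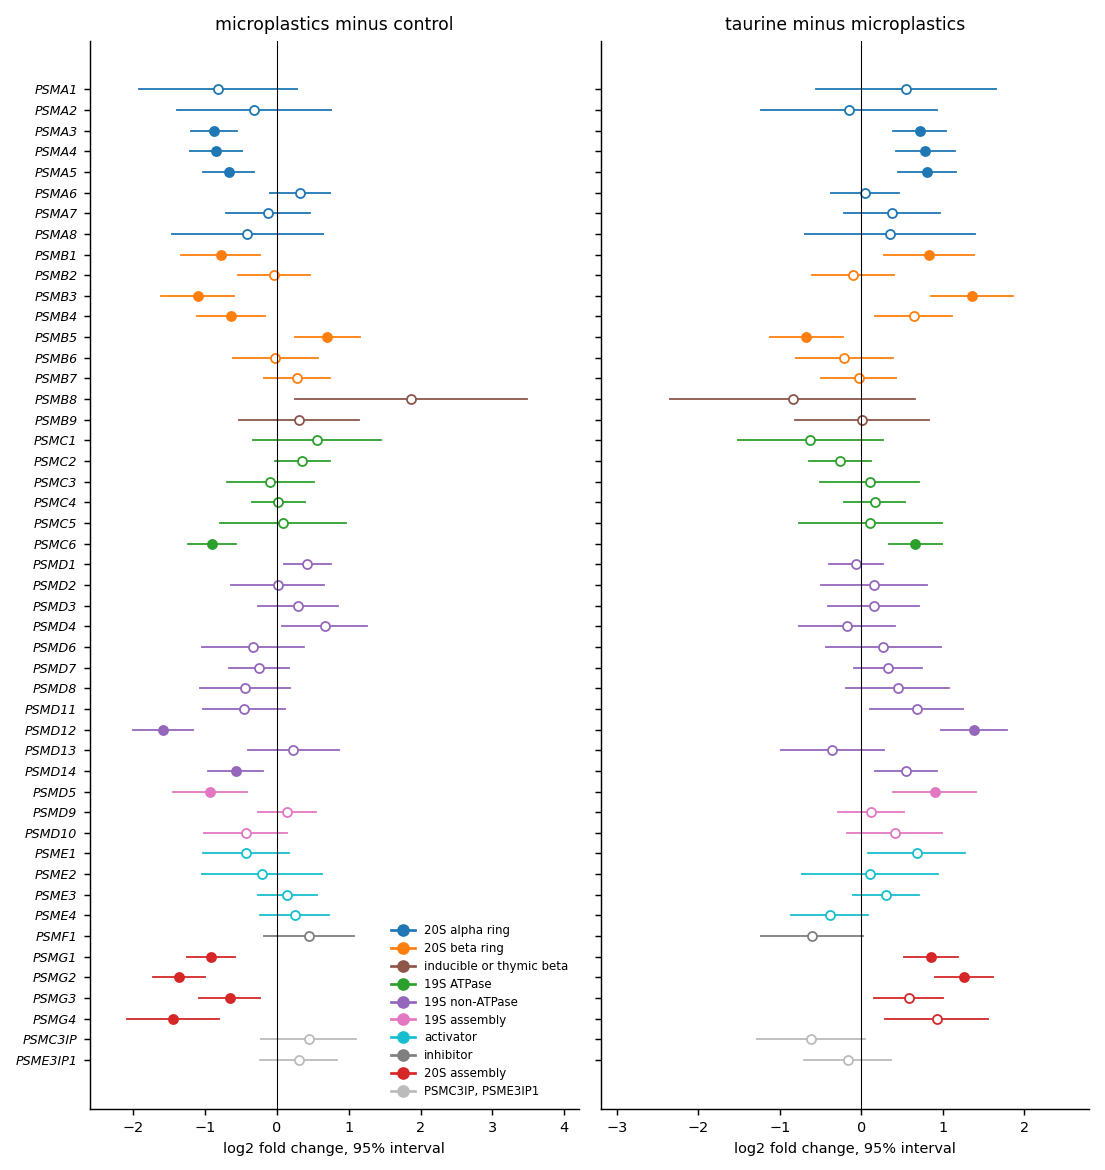
Log2 fold change with its 95% interval for each tested member, coloured by role, for microplastics minus control (left) and taurine minus microplastics (right), with filled points for adjusted p under 0.05 in the edgeR test. On the left the 4 PSMG genes lie between -1.45 and -0.65, and on the right between 0.58 and 1.26.

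Between the taurine group and control, no member was called in either direction (edgeR quasi-likelihood test), and 2 had an unadjusted p under 0.05. DESeq2 and limma-voom also called 0, with 2 each at an unadjusted p under 0.05. Of all tested genes 0.00757% were called higher and 0 lower. Log2 differences ranged from -0.52 to 1.02 with a median of 0.00, and the groups did not overlap in 3 members that were higher and 1 that was lower, against 4.59% and 4.57% of all genes. For the 14 members lower with microplastics, the differences lay between -0.52 and 0.26, and their 95% intervals, which all contained 0, reached from -1.15 to 0.75. The intervals leave room for differences of either sign, and this comparison shares its libraries with both others.

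This comparison depended on the 2 libraries that resembled the other group. Without control 3 and taurine 3, 3 of 48 tested members were higher with taurine than in control, all of them non-ATPase subunits of the cap. PSMD4 then differed by 1.02 (edgeR adjusted p = 0.0181), against 0.49 with all libraries, PSMD3 by 0.99 (adjusted p = 0.0114) against 0.45, and PSMD2, a scaffold of the cap base, by 0.84 (adjusted p = 0.0336) against 0.17. With all libraries PSMD3 was at 65.4, 72.8 and 127 CPM in control, 117, 104 and 104 with microplastics and 140.4, 134 and 86.8 with taurine, and PSMD2 at 23.8, 24.2 and 52.5 CPM in control, 35.7, 31.3 and 34.4 with microplastics and 41.2, 44.5 and 27.2 with taurine. In both genes control 3 was the highest control library and taurine 3 the lowest taurine library. Of all 13426 genes tested without this pair, 623 were higher and 160 lower.

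The inducible catalytic subunits, which replace the constitutive ones in the immunoproteasome of immune cells and of cells under interferon, were near the lower end of detection. PSMB8, the counterpart of PSMB5, had 6, 6 and 5 reads in control, 33, 28 and 28 with microplastics and 1, 12 and 22 with taurine. In reads the 3 microplastics libraries exceeded all others, while in TMM-scaled CPM taurine 3 lay among them. The difference from control of 1.87 ± 0.74 was not called (edgeR adjusted p = 0.0858). By library size alone it was 2.35 with an adjusted p of 0.027. PSMB9, the counterpart of PSMB6, had 45, 52 and 44 reads in control, 69, 97 and 82 with microplastics and 102, 35 and 46 with taurine. In reads its microplastics libraries lay above the control libraries, while in TMM-scaled CPM the groups overlapped, and it was not called. PSMB10, the counterpart of PSMB7, had 4, 9 and 5 reads in control, 8, 1 and 3 with microplastics and 7, 4 and 14 with taurine. PSMB11, the subunit of thymic epithelium, had 0 reads in 7 of 9 libraries and at most 6. PSMB10 and PSMB11 did not pass the filter on low counts. Leukocyte markers summed to 12.4 to 20.0 CPM in control, 15.2 to 16.2 under microplastics and 9.03 to 14.1 in the taurine group. Of the 13 of 14 such markers in the table, CD14 and ITGAM were at 0 in all control and microplastics libraries, and PTPRC stayed at or under 0.189 CPM. Most of the sum came from CD3E (5.83 ± 1.2 CPM in control, 3.25 ± 0.564 with microplastics), CSF1R (5.9 ± 4.84 and 8.61 ± 1.28) and CD3D (2.79 ± 1.75 and 1.84 ± 0.385). The part of these markers in the values of PSMB8 and PSMB9 was not tested. Of the 6 leukocyte markers tested, 1, CD3E, was lower with microplastics and 0 were higher. Interferon response genes summed to 79.2 to 116, 46.9 to 56.6 and 75.6 to 120 CPM. Of the 8 that were tested, 1, B2M, was lower with microplastics and 0 were higher. B2M was the highest of them, at 64.3 ± 17.4 CPM in control and 32.6 ± 5.45 with microplastics. Log2 changes of the 8 ran from -2.85 (ISG15, edgeR adjusted p = 0.0525) to 0.93 (IRF1, not called), with a median of -1.33. Over all tested genes 14.7% were called lower and 9.68% higher.

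None of the 4 activators and not the inhibitor was called in any comparison. PSME1, a subunit of the cap known as PA28, was at 5.45, 4.07 and 3.38 CPM in control, 3.02, 3.01 and 3.51 with microplastics and 5.47, 5.21 and 4.6 with taurine. Its partner PSME2 was at 3.65, 2.48 and 2.48 CPM in control, 2.19, 2.07 and 3.19 with microplastics and 1.57, 2.41 and 4.05 with taurine. Neither gene separated control from microplastics. PSME3, which forms a nuclear cap of its own, was at 18.1, 18.2 and 21.4 CPM in control, 19, 20.6 and 24.2 with microplastics and 24.9, 26.6 and 27.3 with taurine, and its taurine libraries lay above all others. PSME4, a large single-chain cap, was at 32.9, 25.8 and 29.8 CPM in control, 40.5, 32 and 32.5 with microplastics and 34.7, 21.3 and 24.2 with taurine. PSMF1, the inhibitor, was at 5.83, 4.02 and 3.67 CPM in control, 5.62, 7.28 and 5.53 with microplastics and 3.37, 4.97 and 3.78 with taurine. Control and microplastics libraries overlapped in all 5 of these genes. PSME3 was 1 of 2 members with more than 1 deposited transcript. Its shorter transcript took 45.9%, 43.5% and 26.5% of the reads of the gene in control, 8.95%, 33.2% and 0.41% with microplastics and 33.9%, 24.3% and 32.4% with taurine. Neither transcript was called with microplastics, the longer at 0.62 (edgeR adjusted p = 0.147) and the shorter at -1.33 (adjusted p = 0.39). The shorter was at -3.00 (adjusted p = 0.0834) without microplastics 2 and at -0.77 without microplastics 3, and the longer at 0.39 without microplastics 3, with none of these called. PSMC3IP, not a proteasome gene, was at 10.7, 8.98 and 10.8 CPM in control, 16, 11.6 and 13.8 with microplastics and 12.1, 10.04 and 4.87 with taurine and was not called.

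Genes that work with the proteasome moved in both directions. Of 33 such partners, all of which were tested, 7 were higher and 4 lower with microplastics (edgeR quasi-likelihood test), with a median of 0.02. Of all tested genes, 9.68% were called higher and 14.7% lower, with a median of 0.04. POMP, the chaperone that guides the beta ring onto the alpha ring, fell, as the PSMG genes did. It was at 966 ± 175 CPM (SD, n = 3) in control, 452 ± 37.2 under microplastics and 849 ± 110.2 in the taurine group. Its change was -1.10 ± 0.18 with microplastics (adjusted p = 0.00127) and 0.91 ± 0.18 with taurine against microplastics (adjusted p = 0.00533). The lid subunit SEM1 (-1.29), AKIRIN2, which brings proteasomes into the nucleus (-0.66), and the polyubiquitin gene UBB (-0.76) fell as well, but these 3 calls ended by library size alone. The SEM1 and UBB calls also ended with the length trend removed.

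The 7 partners that rose are known for tagging proteins, delivering them or binding the proteasome. UBA1, the main ubiquitin-activating enzyme, was at 77.9 ± 11.5 CPM in control, 171 ± 8.6 with microplastics and 85 ± 11.2 with taurine. It changed by 1.13 ± 0.17 (edgeR adjusted p = 0.000836) and, with taurine against microplastics, by -1.01 ± 0.17 (adjusted p = 0.00252). The delivery factors RAD23B (0.71), UBQLN4 (1.32) and BAG6 (1.23), the cofactors of the VCP segregase NSFL1C (0.68) and NPLOC4 (0.70), and the proteasome-binding scaffold ECPAS (0.98) were the others. Leaving out each library in turn, POMP, BAG6 and UBA1 stayed called and the 8 others did not. By library size alone, 13 partners were higher and 1, POMP, was lower, and of all 13206 tested genes 4004 were higher and 876 lower. With taurine against microplastics, POMP, PITHD1 (0.66) and UBB (0.95) were higher and ECPAS (-0.95), RAD23B (-0.76) and UBA1 lower, and between the taurine group and control 0 of 33 were called. Of all tested genes, 10.1% were higher and 4.13% lower with taurine against microplastics.

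**Figure D5:**
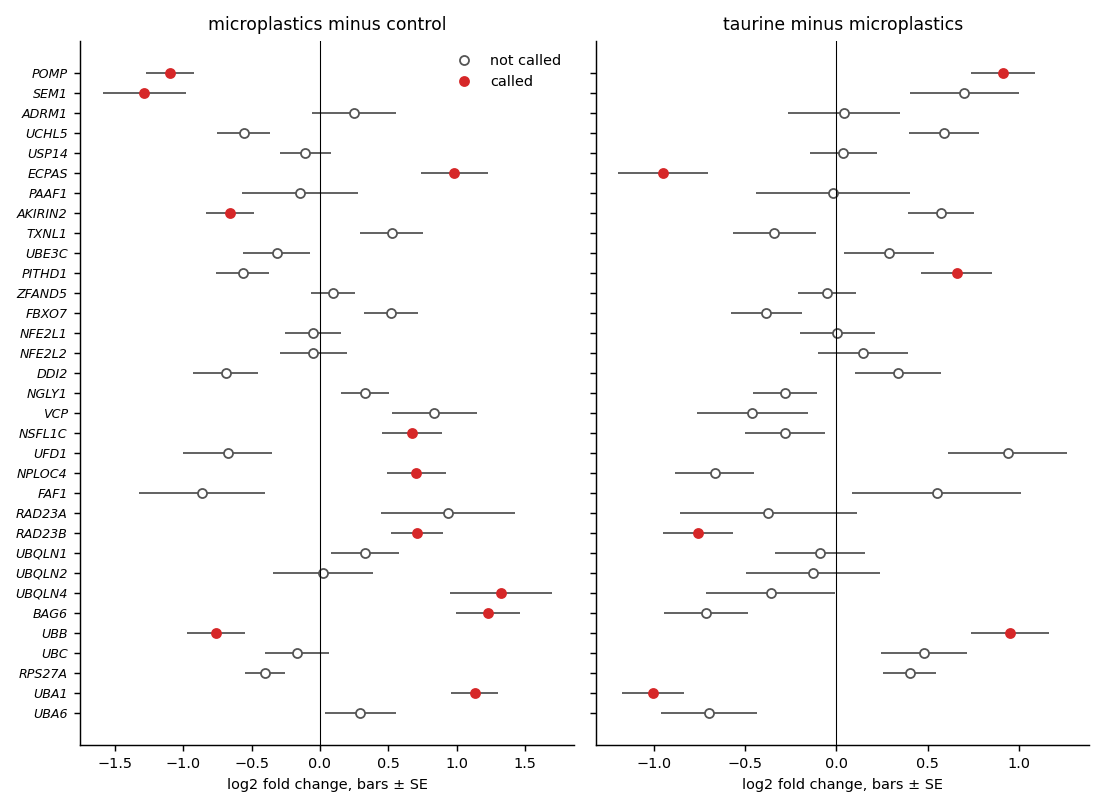
Log2 fold change with bars of ± 1 SE for the 33 partner genes, microplastics minus control (left) and taurine minus microplastics (right), with filled points for adjusted p under 0.05 in the edgeR test. POMP, UBB, ECPAS, RAD23B and UBA1 are filled on both sides, each with opposite signs.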

How the data were processed

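Total RNA of bovine metaphase II oocytes, 3 libraries in each of 3 groups, was extracted with TRIzol per the labels' protocols. Aligner, counter, build and annotation were not given in the sources used here, so no coordinates or sequences are printed. For each of 22590 transcripts the authors' table holds estimated counts, FPKM and TPM, per the file headers, and a scaled signal that was not used here. How the authors' counting divided reads between near-identical copies is not known, so values of paralogs such as PSMA7 and PSMA8 are uncertain in that respect.

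Transcript counts were added up per gene (17852 genes) and rounded. Symbols came from the RefSeq gene table of assembly ARS-UCD2.0 by gene ID, for 95.2% of genes. Tests used edgeR 4.0.16 (R 4.3.3), its quasi-likelihood F test in a robust fit of all 9 libraries with a coefficient for each group. Scaling was by TMM, and filterByExpr with a count of 10 and a total of 15 left 13206 genes, over which p was adjusted by Benjamini-Hochberg. Called means an adjusted p under 0.05. Errors are SD over 3 libraries for levels and SE for log2 changes, and intervals are 95%. TPM was summed per gene, and transcript length was taken from counts and FPKM. PSMB10 and PSMB11 did not pass the filter.

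Named were all members called in any comparison, up to 4 per role and comparison, and 14 members fixed by name. Levels per length of further members and the changes of PSMD1, PSMD2, PSMD3, PSMD11 and PSMD13 were added after their values had been seen. The members, the 33 partners and the marker lists were chosen with earlier results of these data known. Partners are described by counts and medians, and 1 further gene is not reported here.

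Alternatives were DESeq2 1.42.0 size factors, library size alone, the DESeq2 Wald test, limma-voom (limma 3.58.1), no filter, at least 5 CPM in 3 libraries, only the compared groups, a replicate block, an adjusted p under 0.1, an absolute log2 change of at least 1, each library left out, control 3 and taurine 3 left out together, a length trend removed by lowess, and transcripts tested one by one. The division at 100 CPM was chosen after seeing the data. Depth of 21.17 to 22.74 M estimated reads limits members with few reads, for which intervals are wide.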

Additional observations from a re-analysis of the deposited data

How the results depend on the processing

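Of the alternatives listed under processing, scaling by library size alone changed the balance of calls most. With microplastics it gave 11 members higher and 6 lower with a median of 0.31, and with taurine against microplastics 5 higher, 5 lower and a median of -0.21. The cause was not tested. With microplastics, members called higher numbered 2 with a filter of 5 CPM in 3 libraries, 4 with only the compared groups, 4 at an adjusted p under 0.1, 6 without control 3 and taurine 3, and 0 with a change of at least 1 on the log2 scale or transcripts tested one by one. Members called lower then numbered 4 with a change of at least 1 and 9 with the length trend removed (median -0.04). With taurine against microplastics, the 1 member called lower (PSMB5) became 0 with DESeq2 size factors, no filter, a change of at least 1, without control 3 and taurine 3, and by transcripts, and the members called higher became 3 with a change of at least 1. Between the taurine group and control, 3 were higher without control 3 and taurine 3. With 1 library left out at a time, calls with microplastics ranged from 8 to 13 lower and 0 to 3 higher (median -0.28 to -0.12), calls with taurine from 6 to 15 higher and 0 lower (median 0.14 to 0.31), and calls between the taurine group and control stayed at 0 (median -0.04 to 0.13). Shares on the TPM scale were 1.015%, 1.072% and 1.13%. The replicate number as a block gave 12 lower and 0 higher with microplastics, and 8 higher and 0 lower with taurine. Whether replicate numbers pair the samples is not given in the labels. Deviations of same-numbered libraries from their group means correlated between -0.441 and 0.261 over 9 pairs, other pairs between -0.306 and 0.392. These values cannot settle pairing, since each mean rests on 3 libraries and the labels of control 3 and taurine 3 were not tested.

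Members that were not called changed sign near 0. With microplastics, PSMB6 was at 0.48 by library size alone, 0.03 with the 5 CPM filter, 0.02 with limma-voom, 0.37 with the length trend removed, and -0.22 to 0.19 with a library left out. PSME1 was at 0.06 and PSME2 at 0.28 by library size alone, and with the length trend removed PSME2 was at 0.17, PSME3 at -0.07 and PSME4 at -0.02. With taurine against microplastics, PSMB7 was at -0.26 to 0.09 and PSMD4 at -0.49 to 0.04 with a library left out, and at 0.08 and 0.03 without control 3 and taurine 3. PSMB9 was at -0.41 by library size alone, -0.11 with limma-voom, -0.01 with only the compared groups, -0.06 with the replicate block, -0.27 with the length trend removed, and -0.52 to 0.30 with a library left out. PSME2 was at -0.36 by library size alone, -0.19 with the length trend removed, -0.33 without control 3 and taurine 3, and -0.32 to 0.38 with a library left out. PSME3 was at -0.13 by library size alone and 0.00 by transcripts, and its longer transcript at -0.19 to 0.23 with a library left out. Between the taurine group and control, PSMD2 was at -0.03 to 0.65 with a library left out.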
